A study of Mus musculus with 12 samples.

Results

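Lrrc14b and 3 genes near it on mouse chromosome 13, Ccdc127, Pdcd6 and Exoc3, are described here, 4 of the 26855 genes in the deposited table. They were chosen by symbol with their values in these libraries known: Lrrc14b was selected on its counts in 1 group of libraries, and the others on their place beside it. Their levels and differences are therefore given as a description, with no test. All 4 passed the low-count filter that left 12625 genes for testing, and Lrrc14b passed it through the 1 group where it is high.

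The libraries hold alveolar macrophages from lavage of mouse lungs 14 days after bleomycin, which damages lung tissue and serves as a model of fibrosis. Every group received bleomycin, and strain, sex and age are not given in the labels. Cells were separated by size filtration and then by flow sorting on side scatter and BODIPY staining, which reads neutral lipid. The 3 groups of 4 libraries are titled UPBIG, UPSMALL and DOWN, and no label ties a title to a fraction or gate. Nor does any label state separate mice for the replicates, so the spread behind the p-values is that between these libraries and may be technical. Library totals ran from 17109669 to 23282621 expected read counts.

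Lrrc14b encodes a leucine-rich repeat protein that has been little studied and whose transcript is best known from heart and skeletal muscle. Ccdc127 encodes a coiled-coil protein, also little characterised. Pdcd6 encodes ALG-2, a calcium-binding protein with EF hands that links membrane-coat and membrane-remodelling machinery to their partners, and Exoc3 encodes a core subunit of the exocyst, the complex that tethers secretory vesicles to the plasma membrane. Alveolar macrophages take up and clear surfactant lipid and inhaled particles.

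On the mm10 assembly (GENCODE M21 annotation), Lrrc14b lies at chr13:74359578-74364005 on the minus strand and has 2 exons, of 933 and 1822 bases, split by an intron of 1673 bases. Ccdc127 lies at chr13:74350309-74365783 on the plus strand, and the last exon of its transcript Ccdc127-201 runs over 9328 bases, 8669 of them 3′ UTR. All 2755 exon bases of Lrrc14b lie inside that UTR on the opposite strand, and they make up 28.8% of the exon bases of Ccdc127. Pdcd6 (chr13:74303509-74317580) and Exoc3 (chr13:74169488-74208732) lie farther along on the minus strand and share no exon bases with either gene. Sdha, the gene between Pdcd6 and Ccdc127, starts 28 bases from Ccdc127 and is transcribed away from it.

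**Figure D1:**
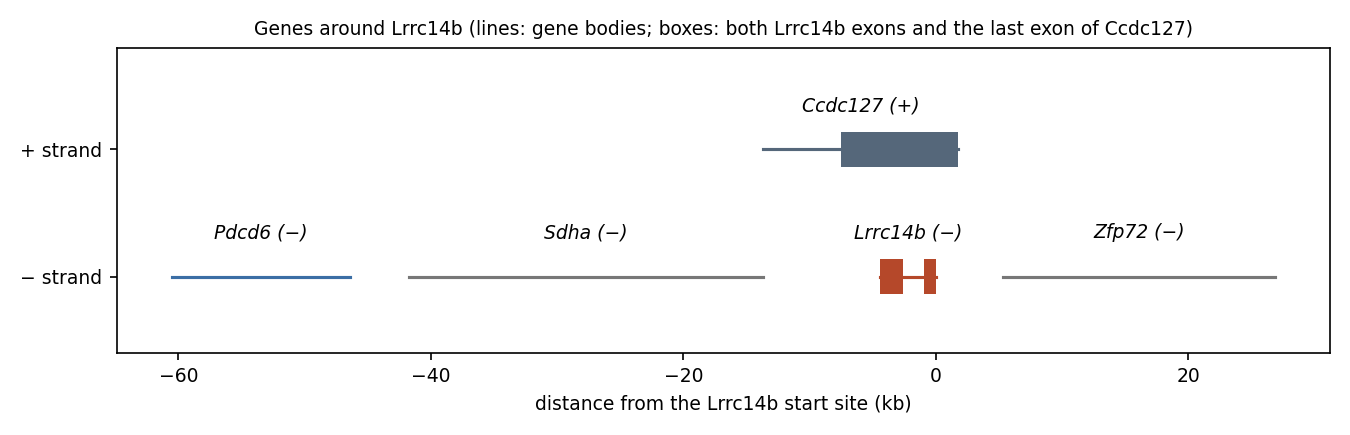
Positions of Pdcd6, Sdha, Ccdc127, Lrrc14b and Zfp72 by strand, as distance in kb from the Lrrc14b start site. Both Lrrc14b exons (red boxes) lie under the last exon of Ccdc127 (grey box, 9328 bases), which is on the other strand.

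The sequence just before each start site shows how Lrrc14b differs from its 3 neighbours. These are the bases from 35 to 6 before the start in RefSeq (GRCm38.p6), on each gene's own strand, with a TATA box (TATAAA) in capitals. RefSeq starts can differ from the GENCODE ones above.
Lrrc14b, chr13:74364006-74364035, minus strand: gcagcTATAAAtagccacaacactcgcaca
Ccdc127, chr13:74350282-74350311, plus strand: ttctgcgcctgcgcaacacgcccctcctgg
Pdcd6, chr13:74317332-74317361, minus strand: agacgttgcgtggcaacggaccacgcctgc
Exoc3, chr13:74208706-74208735, minus strand: cccagacgccggaaacggaagtgaccgcgt
The TATA box of Lrrc14b begins 30 bases before its start, and 2.01% of 32851 mouse promoters hold TATAAA on the gene's strand in this window. None of the other 3 genes holds it there. Over 300 bases (250 before to 50 after the start), the Lrrc14b promoter is 51.3% G and C and has 6 CpG, a ratio of observed to expected CpG of 0.305. Ccdc127 has 66.7% G and C and 34 CpG (ratio 1.04), Pdcd6 has 61.3% and 19 CpG (0.679), and Exoc3 has 57.0% and 22 CpG (0.908). The medians over all promoters are 52.7% and 0.384, so Lrrc14b lies just below both and the other 3 genes above both.
Sdha and Ccdc127, whose starts face away from each other, share one short stretch between their GENCODE starts, 67.9% G and C.
Between the starts, chr13:74350281-74350308, plus strand: attctgcgcctgcgcaacacgcccctcc
The GC box GGGCGG, searched on both strands of the 300 bases, was found in Ccdc127, Pdcd6 and Exoc3 and in 35.7% of all promoters. CCAAT, present in 37.4% of promoters, was found in none of the 4. Nor was AGGTCANAGGTCA, the direct repeat known for PPAR receptors (0.0396% of promoters), or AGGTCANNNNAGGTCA, the direct repeat known for LXR receptors (0.0152%). These are letter matches in these windows only.

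Lrrc14b was credited with reads in every UPBIG library and hardly any elsewhere. Its expected counts were 894.79, 597.16, 795.96 and 599.62 in UPBIG replicates 1 to 4. They were 0, 1.55, 2.68 and 0 in UPSMALL replicates 1 to 4 and 0 in all 4 DOWN libraries. No UPBIG library came near any of the others. In CPM (counts relative to the library total, scaled by TMM) the UPBIG values were 55.8, 35.7, 46.6 and 40.9, a mean of 44.7 ± 8.59 (SD, n = 4). The UPSMALL mean was 0.0492 ± 0.0593 CPM. On rounded counts summed over each group and scaled for depth, UPBIG exceeded UPSMALL by 793-fold, 2888 counts against 5, with a 95% interval of 339 to 2443. Without UPSMALL replicate 3 that ratio was 1479. Against DOWN, where the credited count was 0, the ratio was 1265 with 3 counts over the DOWN group taken as the floor. Reads carry no molecular identifiers, so intervals and floors cover counting error only. They do not cover how reads shared with Ccdc127 were divided, so the floor sets no lower bound on the difference. Per kilobase of exon (RPKM, computed here from CPM), Lrrc14b averaged 16.2 ± 3.12 in UPBIG, and it ranked between 1974 and 2822 among the 14906 to 16278 genes detected in those libraries. In bulk libraries more cells with a transcript and more transcript per cell cannot be told apart.

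Ccdc127, which shares the whole exon sequence of Lrrc14b, was on average higher in UPBIG. Its CPM values were 23.3, 36.4, 35.1 and 38.3 in UPBIG replicates 1 to 4. They were 16.5, 19.9, 19.0 and 26.0 in UPSMALL and 18.1, 24.6, 31.7 and 14.7 in DOWN. UPBIG replicate 1 lies inside the range of both other groups, so the groups overlap. The log2 fold change was 0.71 ± 0.22 (SE) for UPBIG over UPSMALL, 0.58 ± 0.22 for UPBIG over DOWN and -0.13 ± 0.22 for UPSMALL over DOWN. Per kilobase of exon, Ccdc127 averaged 3.48 ± 0.708 RPKM in UPBIG, 2.13 in UPSMALL and 2.33 in DOWN.

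The deposited values of Lrrc14b and Ccdc127 depend on each other. RSEM, the program named for these counts, divides reads that match more than 1 transcript in proportion to estimated abundance, and full-length SMART-Seq chemistry does not mark the strand. In all 6 libraries with a Lrrc14b value above 0, neither gene's value was a whole number, yet their sum was whole to within 0.01. In UPBIG replicates 1 to 4 the sums were 1269, 1206, 1395 and 1161, of which 70.5%, 49.5%, 57.1% and 51.6% were credited to Lrrc14b. In UPSMALL replicates 2 and 3 the sums were 400 and 430, with 0.388% and 0.623% credited to Lrrc14b. Whole sums were common among such pairs. Of 1816 gene pairs on opposite strands that overlap in exons and overlap no other gene, 5444 pair-by-library cases had both values not whole, and 86.7% of these cases summed to a whole number. Of the 6 libraries with Lrrc14b at 0, Ccdc127 was whole in 4 and not whole in UPSMALL replicate 4 and DOWN replicate 3.

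The sum of the pair does not depend on how reads were divided between its 2 genes. It was 79.1, 72.1, 81.7 and 79.2 CPM in UPBIG replicates 1 to 4, a mean of 78.0 ± 4.14 (SD, n = 4). It was 16.5, 19.99, 19.1 and 26.0 CPM in UPSMALL (mean 20.4 ± 4.01) and 18.1, 24.6, 31.7 and 14.7 CPM in DOWN (mean 22.3 ± 7.52). Every UPBIG library lay above every other library. The 4 UPBIG sums lay closer together than the values of Lrrc14b or Ccdc127 alone, since replicate 1, highest for Lrrc14b, was lowest for Ccdc127. UPBIG exceeded UPSMALL 3.82-fold and DOWN 3.50-fold in mean summed CPM. With the pair entered as 1 gene, a choice made after seeing the data, the log2 fold changes were 1.93 ± 0.20, 1.81 ± 0.19 and, for UPSMALL over DOWN, -0.12 ± 0.19. The size of the difference thus depends on the unit counted: hundreds-fold for Lrrc14b as deposited, and below 4-fold for the reads of the locus. Which strand the reads came from was not recorded in the values used here.

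**Figure D2:**
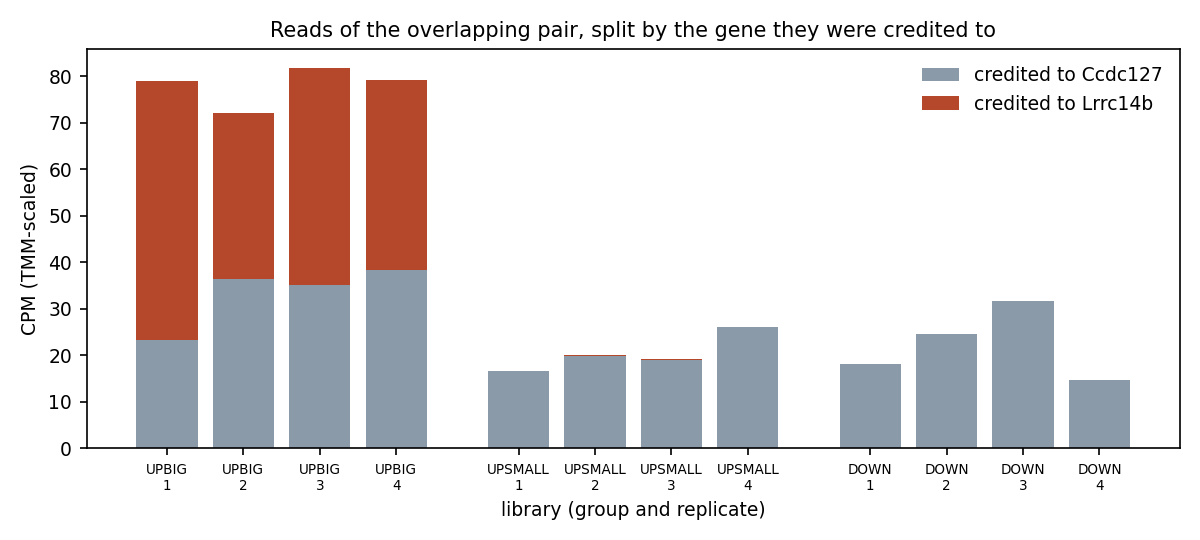
CPM of the Lrrc14b and Ccdc127 pair in each of the 12 libraries, stacked by the gene credited. The UPBIG bars reach 72.1 to 81.7 CPM, with 49.5% to 70.5% of each credited to Lrrc14b, and no other bar exceeds 31.7 CPM.

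Pdcd6 was the most abundant of the 4 genes, with similar levels across the groups. It had 194, 218, 181 and 187 CPM in UPBIG (mean 195 ± 16.4, SD, n = 4), 181, 206, 178 and 138 CPM in UPSMALL (mean 176 ± 27.9) and 170, 185, 175.5 and 161 CPM in DOWN (mean 173 ± 10.1). The groups overlap, and the lowest library was UPSMALL replicate 4. The log2 fold change was 0.15 ± 0.12 for UPBIG over UPSMALL, 0.18 ± 0.12 for UPBIG over DOWN and 0.03 ± 0.12 for UPSMALL over DOWN. Per kilobase of exon it averaged 69.8 ± 5.86 RPKM in UPBIG, 62.9 in UPSMALL and 61.8 in DOWN.

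Exoc3 had 27.2, 32.3, 27.4 and 37.3 CPM in UPBIG (mean 31.0 ± 4.80, SD, n = 4). It had 27.1, 37.4, 28.1 and 24.9 CPM in UPSMALL (mean 29.4 ± 5.50) and 23.4, 31.5, 31.2 and 33.4 CPM in DOWN (mean 29.9 ± 4.45). All 3 groups overlap throughout. The log2 fold changes were 0.08 ± 0.16, 0.05 ± 0.16 and -0.03 ± 0.16 in the same order of comparisons. Scaled by library totals alone, which moves the median of all genes to -0.31 (UPBIG over UPSMALL) and -0.36 (UPBIG over DOWN) from -0.03 with TMM, the values were -0.11 and -0.14 for Pdcd6 and -0.19 and -0.27 for Exoc3. The signs of both genes are therefore relative to the scaling. That of Exoc3 also turned when single libraries were left out, with ranges of -0.02 to 0.22 over UPSMALL and -0.04 to 0.13 over DOWN. Ordered per kilobase of exon in UPBIG, Pdcd6 came first, then Lrrc14b, Exoc3 (5.17 ± 0.801) and Ccdc127. In UPSMALL and DOWN, where Exoc3 averaged 4.89 and 4.98, the order was Pdcd6, Exoc3, Ccdc127 and Lrrc14b. In every group the ranges of genes next to each other in that order did not overlap. The UPBIG order rests on how RSEM divided the shared reads: with all reads of the pair credited to Ccdc127, that gene would have 8.16 ± 0.433 RPKM in UPBIG, above Exoc3, and Lrrc14b would come last.

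**Figure D3:**
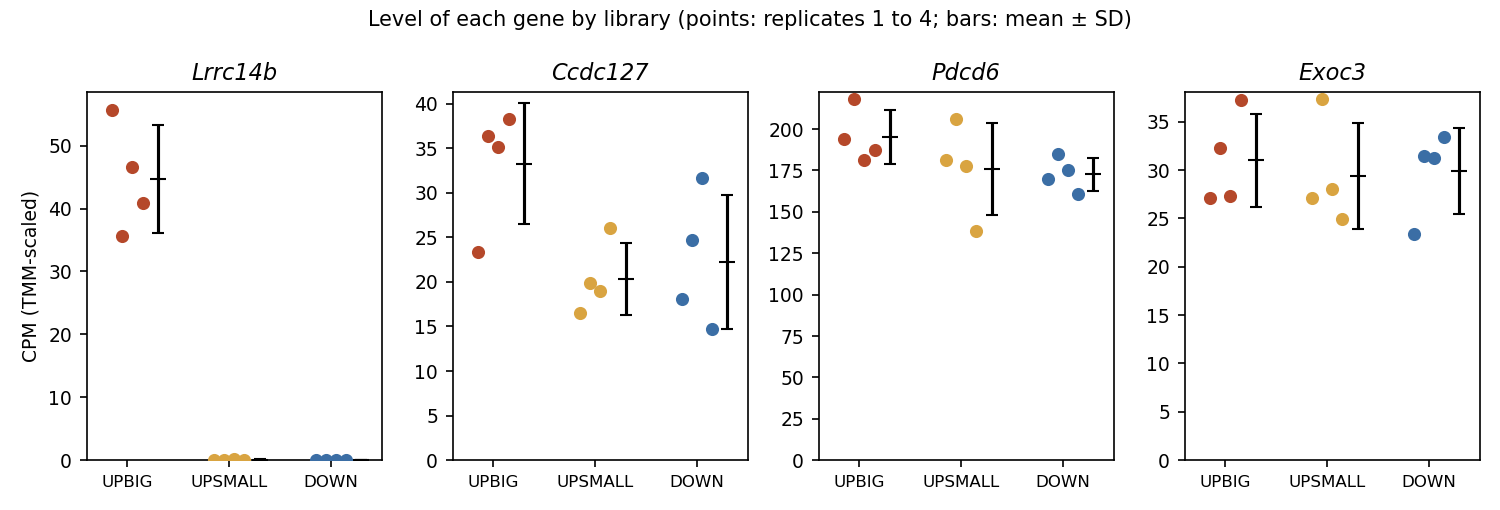
CPM of Lrrc14b, Ccdc127, Pdcd6 and Exoc3 in each library, with the mean and SD of the 4 libraries of each group beside the points (axes start at 0 and differ in scale). The groups separate for Lrrc14b, with UPBIG at 35.7 to 55.8 CPM, and overlap for the other 3 genes.

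Set against all genes tested, 1 of the 4 genes, Lrrc14b, had an adjusted p under 0.05 by edgeR for UPBIG against UPSMALL, where 5.7% of genes were called, and for UPBIG against DOWN, where 17.5% were called. It was also the 1 of 4 without overlap between libraries, against 11.8% and 21.4% of genes. For UPSMALL against DOWN none was called and none was without overlap, against 1.14% and 8.24% of genes. Since Lrrc14b was chosen for this pattern, nothing is read from these counts.

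Other genes around Lrrc14b were not uniformly higher in UPBIG. Of 32 further annotated genes wholly within 500 kb, 25 had a row and 13 were tested. edgeR called 3 of the 13 higher and 0 lower in UPBIG over UPSMALL (median log2 fold change 0.21, against -0.03 over all genes). It called 3 higher and 1 lower in UPBIG over DOWN (median 0.11, against -0.03). In UPSMALL over DOWN it called 0, with 1 at an unadjusted p under 0.05 and 1 called by DESeq2. Over all genes edgeR called 5.7%, 17.5% and 1.14% in these comparisons, in the same order. The 2 UPBIG comparisons share the UPBIG libraries.

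Sdha, the flavoprotein subunit of succinate dehydrogenase in the respiratory chain, rose in UPBIG. It had 175, 191, 177 and 193 CPM in UPBIG, 107, 115, 124 and 116 CPM in UPSMALL and 126, 120, 117 and 124 CPM in DOWN. The UPBIG libraries all lay above the rest. The log2 fold change was 0.67 ± 0.10 (edgeR adjusted p = 0.000151) over UPSMALL and 0.59 ± 0.10 (edgeR adjusted p = 0.000227) over DOWN. With library totals alone the second was 0.27 (adjusted p = 0.0703). Sdha shares no exon bases with Ccdc127, its divergent neighbour, and its values were whole numbers of reads. Of 8 tested genes of succinate dehydrogenase subunits and assembly factors, Sdha included, 1 was higher and 0 lower in UPBIG over UPSMALL (median 0.13). In UPBIG over DOWN 2 were higher and 0 lower (median 0.25). Over all genes the median was -0.03 in both, and 5.7% and 17.5% were called. In UPSMALL over DOWN edgeR called 0 of the 8, with 0 at an unadjusted p under 0.05 and 0 by DESeq2. Sdhc, a membrane-anchor subunit, was the other one called, in UPBIG over DOWN (0.38 ± 0.13, edgeR adjusted p = 0.0464), and its call was lost without UPBIG replicate 1, 2 or 4, UPSMALL replicate 3 or any 1 DOWN replicate (adjusted p = 0.0557 to 0.142), and with library totals alone (adjusted p = 0.774).

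On the far side of Lrrc14b, Ftl1-ps1 (35.7 kb away) and the antisense transcript Gm47428 (42.7 kb) also rose. The symbol Ftl1-ps1 names a ferritin light chain pseudogene, while the GENCODE M21 annotation types the gene as protein-coding. Ftl1-ps1 had log2 fold changes of 0.66 ± 0.14 (edgeR adjusted p = 0.00769) over UPSMALL and 0.79 ± 0.14 (adjusted p = 0.00071) over DOWN. Gm47428 had 0.70 ± 0.17 (edgeR adjusted p = 0.0154) and 1.02 ± 0.17 (adjusted p = 0.000293). Without UPBIG replicate 4 the first value of Gm47428 was 0.57 (adjusted p = 0.0722), and with library totals alone neither gene kept its call over UPSMALL. They overlap each other by 329 exon bases on opposite strands, with neither value whole in any of the 12 libraries, and Ftl1-ps1 resembles the abundant Ftl1 transcript, so both values are uncertain. Cast, which encodes the calpain inhibitor calpastatin and lies 444.8 kb away, fell in UPBIG over DOWN by 0.68 ± 0.11 on the log2 scale (edgeR adjusted p = 0.000155). It averaged 63.8 CPM in UPBIG, 80.0 in UPSMALL and 102 in DOWN, and the ranges of the groups did not overlap. The other comparisons were not called: -0.33 for UPBIG over UPSMALL (edgeR adjusted p = 0.0793) and -0.35 for UPSMALL over DOWN (adjusted p = 0.112). Cast overlaps Erap1 on the other strand by 834 exon bases and was not whole in 12 libraries.
Ahrr, a repressor of the aryl hydrocarbon receptor, had 54 counts over all libraries and Slc9a3, a sodium-proton exchanger, had 1, and neither was tested. Zfp72, next to Lrrc14b on the side away from Sdha, was tested and not called.

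**Figure D4:**
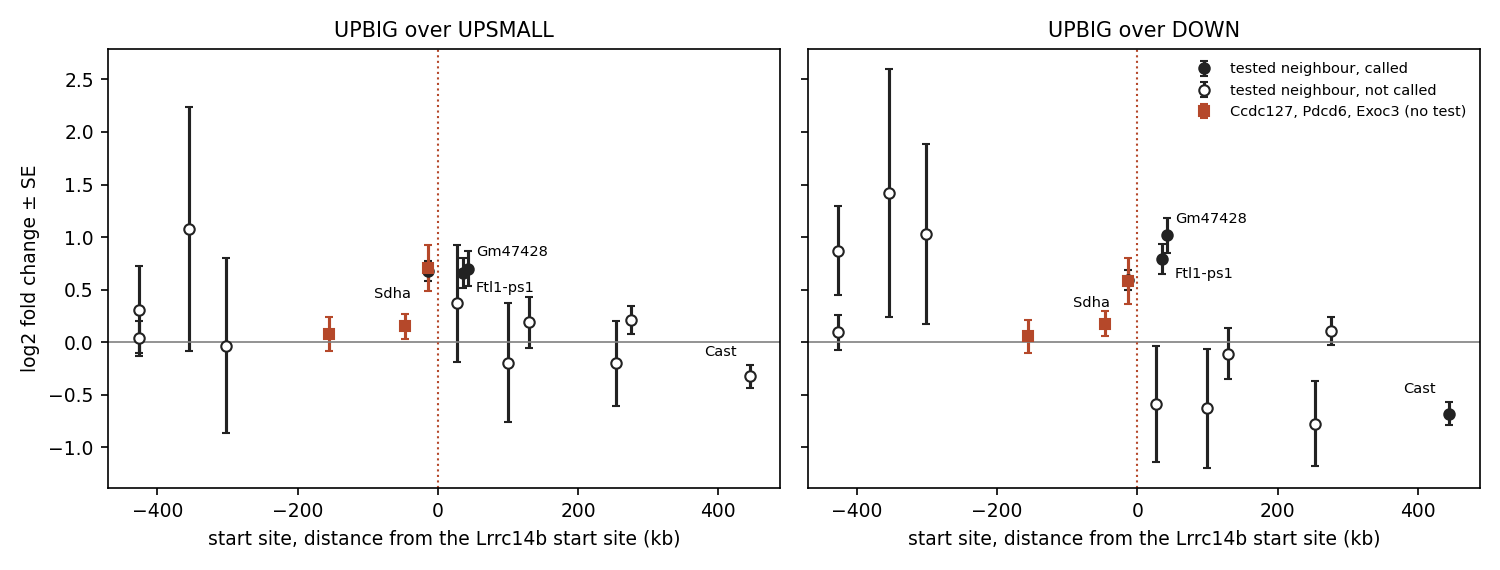
log2 fold change ± SE of the 13 tested neighbours (circles, filled where called) and of Ccdc127, Pdcd6 and Exoc3 (squares) against the distance of each start site from that of Lrrc14b, for UPBIG over UPSMALL and UPBIG over DOWN. Sdha and Ccdc127 sit at almost the same place near 0.6, and Pdcd6 and Exoc3 lie near 0.

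The genes whose levels followed Lrrc14b most closely lay on 10 different chromosomes, with Sdha the one on chromosome 13. By Pearson r of log2(CPM + 1) over the 12 libraries, chosen by that value and given without a test, the 10 highest of the other tested genes were Acadl (0.984), Cst6 (0.981), A930017K11Rik (0.981), Ncoa4 (0.978), Scarb2 (0.978), Gm29243 (0.978), Sipa1l1 (0.974), Gngt2 (0.971), Abca1 (0.969) and Sdha (0.967). The 12 libraries fall into a high and a low level by group, so r mainly records a UPBIG level apart from the rest. By Spearman's rho 1 of these 10 was again among the 10 highest, and with a pseudocount of 0.1 7 of 10 were.
Acadl, a mitochondrial dehydrogenase of fatty acid oxidation, averaged 156 ± 12.5 CPM in UPBIG, 65.2 ± 6.51 in UPSMALL and 64.9 ± 3.08 in DOWN. Abca1, which exports cholesterol, averaged 334 ± 31.4 CPM in UPBIG, 73.9 ± 5.71 in UPSMALL and 55.4 ± 16.8 in DOWN. Ncoa4, the receptor for autophagy of ferritin, averaged 515 ± 26.8 CPM in UPBIG, 313 ± 17.7 in UPSMALL and 293 ± 11.6 in DOWN. These 3 genes were well above 0 in every group, where Lrrc14b was at or near 0 outside UPBIG. Gngt2 overlaps Abi3 on the other strand and was not whole in 12 libraries. Ccdc127 ranked 1118 by this measure (r 0.67), Pdcd6 2114 (0.49) and Exoc3 4576 (0.14). The genes most like Ccdc127 were Chil1 (0.879), Stx7 (0.869) and Mrpl1 (0.861). Those most like Pdcd6 were Ergic3 (0.952), Sbno1 (0.943) and Pon3 (0.938), and those most like Exoc3 were Sbds (0.890), Mat2b (0.857) and Gm43071 (0.846). Of these, Chil1 averaged 0.726 CPM in UPBIG, 0.0681 in UPSMALL and 0.302 in DOWN, and Gm43071 0.678, 0.627 and 0.640. Both lie near the floor, so their r values are uncertain. All r values of Lrrc14b and Ccdc127 use their counts as RSEM divided them, and so depend on that division.

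**Figure D5:**
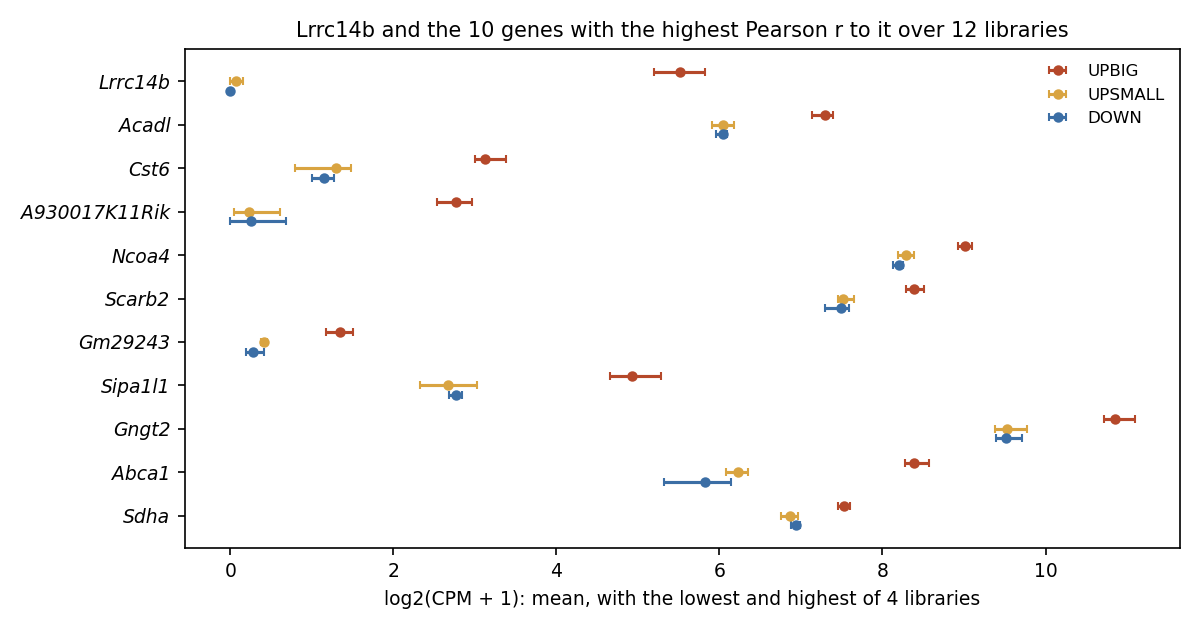
log2(CPM + 1) of Lrrc14b and the 10 genes with the highest Pearson r to it: mean (point), lowest and highest library (bars) of each group. Lrrc14b, A930017K11Rik and Gm29243 lie close to 0 in UPSMALL and DOWN, and the others range up from Cst6 (1.45 CPM in UPSMALL and 1.23 CPM in DOWN).

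Among 10572 genes with at least 10 counts in each UPBIG library, Lrrc14b had the highest ratio of depth-scaled UPBIG counts to those of the 8 other libraries, 1552 (95% interval 664 to 4784). The next was A930017K11Rik at 33.7 (23.2 to 50.6), on 376 UPBIG counts against 30. After it came Scd1, the stearoyl-CoA desaturase (20.5), Pdk4, a pyruvate dehydrogenase kinase (20.02), Tmem40 (18.6), Card14 (16.6), the apolipoprotein Apoc1 (10.8), Mdh1b (10.4), Cd5l (10.4) and Epb41l3 (8.80). Taken as a pair with Ccdc127, at 3.82-fold and 3.50-fold, the locus would lie below all of these. Lrrc14b was chosen on its UPBIG counts, and the minimum of 10 counts was asked of UPBIG alone, so nothing is read from its place. The intervals cover counting error only, not the spread between libraries.

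Transcripts of the other leucine-rich repeat genes named Lrrc were mostly not called. Of 27 tested, 1 was higher and 0 lower in UPBIG over UPSMALL (median 0.06), and 5 were higher and 1 lower in UPBIG over DOWN (median 0.09, against -0.03 over all genes in both). Over all genes 5.7% and 17.5% were called, so these counts lie near the background. In UPSMALL over DOWN edgeR called 0, with 2 at an unadjusted p under 0.05 and 0 by DESeq2. Lrrc39, known from the muscle M-band, averaged 8.47 ± 1.73 CPM in UPBIG, 2.19 ± 1.59 in UPSMALL and 2.24 ± 0.432 in DOWN (1.97 ± 0.41, edgeR adjusted p = 0.00499, and 1.92 ± 0.40, adjusted p = 0.00247). It shares exon bases with Trmt13 and Gm42940 on the other strand and was not whole in any of the 12 libraries, so its value is uncertain, as that of Lrrc14b is. In UPBIG over DOWN, Lrrc8b and Lrrc8d, subunits of volume-regulated anion channels, rose by 0.78 ± 0.17 (edgeR adjusted p = 0.00302) and 0.49 ± 0.12 (adjusted p = 0.00546, or 0.301 with library totals alone). Lrrc27 rose by 1.13 ± 0.25 (edgeR adjusted p = 0.00386) and Lrrc3 by 3.57 ± 0.98 (adjusted p = 0.015), though Lrrc3 averaged 0.893 CPM in UPBIG and lost its call without UPBIG replicate 2 (adjusted p = 0.0562) or DOWN replicate 2 (adjusted p = 0.0509). Lrrc8c, named after its value was seen, fell by 0.70 ± 0.23 (edgeR adjusted p = 0.0414). Lrrc14, the gene whose name is closest to that of Lrrc14b, averaged 9.23 ± 1.66 CPM in UPBIG, 8.25 ± 1.95 in UPSMALL and 9.37 ± 1.80 in DOWN, and was not called.

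Of 15 tested exocyst genes besides Exoc3 (subunits, paralogs and their small GTPases), 1 was higher and 0 lower in UPBIG over UPSMALL (median 0.17), and 3 were higher and 0 lower in UPBIG over DOWN (median 0.27, against -0.03 over all genes in both). These counts, too, lie near the 5.7% and 17.5% called over all genes. In UPSMALL over DOWN edgeR called 0, with 1 at an unadjusted p under 0.05 and 0 by DESeq2. Tnfaip2, a protein related to the subunit that Exoc3 encodes, rose by 0.66 ± 0.14 over UPSMALL (edgeR adjusted p = 0.00793) and by 0.87 ± 0.15 over DOWN (adjusted p = 0.000309). Exoc4, a core subunit, rose over DOWN by 0.76 ± 0.16 (edgeR adjusted p = 0.00251), and Exoc3l4, a relative of Exoc3, by 1.23 ± 0.32 (adjusted p = 0.0111). Exoc3l4 shares exon bases with Gm10425 on the other strand and was not whole in 10 libraries. With library totals alone, Tnfaip2 was no longer called over UPSMALL (adjusted p = 0.0943) or Exoc4 over DOWN (adjusted p = 0.0546).

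Of 20 tested penta-EF-hand genes and genes of ALG-2 partners besides Pdcd6, 2 were higher and 0 lower in UPBIG over UPSMALL, and 5 were higher and 2 lower in UPBIG over DOWN (median 0.15 in both, against -0.03 over all genes). Over all genes 5.7% and 17.5% were called in these comparisons. In UPSMALL over DOWN edgeR called 0, with 4 at an unadjusted p under 0.05 and 1 by DESeq2. Scarb2, a lysosomal membrane protein that carries glucocerebrosidase, rose by 0.87 ± 0.10 (edgeR adjusted p = 2.14e-05) and 0.90 ± 0.10 (adjusted p = 6.18e-06). Capns1, the small calpain subunit, rose by 0.62 ± 0.12 (edgeR adjusted p = 0.00235) and 0.51 ± 0.12 (adjusted p = 0.00452). Over DOWN, Sec31a, a COPII coat subunit bound by ALG-2, rose by 0.70 ± 0.14 (edgeR adjusted p = 0.00142), Gca, which encodes grancalcin, by 0.51 ± 0.13 (adjusted p = 0.0123), and Mcoln1, a lysosomal calcium channel, by 0.55 ± 0.16 (adjusted p = 0.0189). Gca overlaps Kcnh7 on the other strand and was not whole in 12 libraries. Without UPBIG replicate 1 the adjusted p of Mcoln1 was 0.0631. With library totals alone Capns1 lost both calls (adjusted p = 0.0710 and 0.272), and Sec31a, Gca and Mcoln1 lost theirs (adjusted p = 0.0536, 0.389 and 0.322). The 2 that fell, Capn2 (-0.40) and Vps37b (-1.31), were named after their values were seen (edgeR adjusted p = 0.0375 and 0.0333). Pef1, the closest relative of Pdcd6 and its dimer partner, averaged 19.5 ± 4.03 CPM in UPBIG, 18.6 ± 1.07 in UPSMALL and 20.4 ± 2.13 in DOWN, and was not called.

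Muscle genes were measured because Lrrc14b is known from muscle. Of 22 heart and skeletal muscle markers, 13 had no count in UPBIG, and 9 of these, the actins Actc1 and Acta1 and myoglobin Mb among them, had no row in the table, which lists no gene with a total of 0, and were taken as 0. Their summed level was 38.3 to 64.9 CPM in UPBIG, 25.8 to 32.4 CPM in UPSMALL and 26.6 to 38.9 CPM in DOWN, nearly all of it from Tnni2. Without Tnni2 it was 1.99 to 4.36 CPM in UPBIG, 1.49 to 2.58 CPM in UPSMALL and 3.11 to 7.40 CPM in DOWN. Over all genes 5.7% were called in UPBIG over UPSMALL and 17.5% in UPBIG over DOWN. The median log2 fold change of the 4 tested was 0.41 over UPSMALL and -0.10 over DOWN, against -0.03 over all genes in both. Of these 4, Tnni2, a troponin subunit, rose in UPBIG by 0.68 ± 0.16 over UPSMALL (edgeR adjusted p = 0.0156) and by 0.73 ± 0.16 over DOWN (adjusted p = 0.00361), and lost the first call without UPBIG replicate 4 (adjusted p = 0.0735) or UPSMALL replicate 2 (adjusted p = 0.0544). With library totals alone it lost both (adjusted p = 0.139 and 0.0889). In UPSMALL over DOWN edgeR called 0, with 0 at an unadjusted p under 0.05 and 0 by DESeq2.
All 12 alveolar macrophage markers were present, summing to 9575 to 12820 CPM in UPBIG, 9862 to 14940 CPM in UPSMALL and 7599 to 11628 CPM in DOWN. Most of that sum was Chil3 (7924 CPM in UPBIG, 9670 in UPSMALL and 7465 in DOWN), and its members moved apart: Fabp4 averaged 897 CPM in UPBIG, 312 in UPSMALL and 151 in DOWN, and Car4 averaged 17.9 CPM in UPBIG, 127 in UPSMALL and 88.1 in DOWN. Neutrophil markers summed to 354 to 391 CPM in UPBIG, 146 to 208 CPM in UPSMALL and 115 to 158 CPM in DOWN, nearly all from S100a8, with Mpo and Elane at 0 in UPBIG and Ly6g, which has no row, taken as 0. S100a9 moved apart from S100a8 and was highest in DOWN, at 2.55 CPM in UPBIG, 1.36 in UPSMALL and 7.26 in DOWN. Epithelial markers summed to 17.9 to 226 CPM in UPBIG, 18.2 to 47.3 CPM in UPSMALL and 13.7 to 27.6 CPM in DOWN, and all 8 had a count in UPBIG. These members moved apart: Scgb1a1 averaged 65.2 CPM in UPBIG, 12.3 in UPSMALL and 5.94 in DOWN and Sftpc 10.9, 0.377 and 0.940. Cdh1 averaged 1.81 CPM in UPBIG, 9.64 in UPSMALL and 8.83 in DOWN and Epcam 1.97, 4.14 and 3.797. The UPBIG sums ran from below the UPSMALL range to far above it, so the UPBIG means do not stand for every UPBIG library. T and B cell markers summed to 2.32 to 6.96 CPM in UPBIG, 2.35 to 6.70 CPM in UPSMALL and 24.2 to 44.0 CPM in DOWN. The part of these cells in the Lrrc14b values was not tested.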

How the data were processed

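Smart-seq libraries of 12 samples, 4 in each of 3 groups taken from the titles, were compared. The authors deposited 1 table of expected counts, made with RSEM from reads aligned with STAR to mm10, per the submitters' processing notes. Tool versions, and whether counting used strand, are not stated in the labels. Of all values, 13.8% are not whole, and 26808 identifiers matched a symbol in GENCODE M21. Every sample column was mapped.

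Counts were rounded and filtered with filterByExpr. All 12 libraries were fitted with edgeR 4.0.16 in R 4.3.3 (TMM, robust quasi-likelihood test, no block). The fit was also run on counts simulated from its own fitted model as independent libraries. That checks the code and not whether the model suits these data. A call is a Benjamini-Hochberg adjusted p under 0.05 over 12625 genes. Each SE was taken as the fold change on the log2 scale over the root of the F statistic. Precision depends on library totals (17109669 to 23282621) and on the spread between the 4 libraries of each group. DESeq2 1.42.0, other scalings and filters, the replicate block and leaving out each library were alternatives.

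The members and lists were chosen with earlier results of these data known. Named were genes within 500 kb, the 10 most like Lrrc14b (3 for each other member), the 10 highest UPBIG ratios and up to 5 called genes per list. Sequences are from RefSeq (GRCm38.p6), and protein sequences were not used here.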

Additional observations from a re-analysis of the deposited data

Results flagged for a closer look

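In 85 groups of 4 libraries examined, 5 held 1 library far from the other 3, where chance alone flags about 1 in 20 groups. Trip13 had 1.25 CPM in UPSMALL replicate 3, against 2.92 to 3.12 CPM in the other UPSMALL libraries. E430024I08Rik had 2.35 CPM in UPSMALL replicate 4, against 0.744 to 0.979 CPM in the others. Cst6 had 9.47 CPM in UPBIG replicate 1, against 7.03 to 7.29 CPM. A930017K11Rik had 0.531 CPM in UPSMALL replicate 1, against 0.0367 to 0.0890 CPM. Gngt2, which overlaps Abi3 on the other strand, had 2182 CPM in UPBIG replicate 4, against 1676 to 1759 CPM. None of the 4 members was among them.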

How the results depend on the processing

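Across the alternatives run, 396 summary values kept their call and stayed within range and 43 moved. Of the values for single genes, 650 kept theirs, 28 lost the call and 6 moved. Of the 6, 4 changed sign with library totals alone: Pdcd6 (-0.11 over UPSMALL, -0.14 over DOWN) and Exoc3 (-0.19 and -0.27), neither of them called. No called value changed sign. The cause was not tested for any of them.

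With library totals alone, 1622 genes were called for UPBIG against UPSMALL (720 with TMM) and 3755 for UPBIG against DOWN (2210). Calls were then 1 (not 2) for ALG-2 partners and 0 (not 1) for muscle over UPSMALL, 5 (not 3) for the exocyst and 0 (not 2) for succinate dehydrogenase over DOWN. For UPSMALL against DOWN, 393 genes were called with DESeq2, 460 with no low-count filter and 275 with the replicate block (144 otherwise), and 58 to 179 with 1 library left out. In that comparison the ALG-2 list had 1 call (not 0) with library totals, DESeq2, no filter or the block, and the neighbours had 1 (not 0) with DESeq2. Lrrc genes had 2 calls (not 1) over UPSMALL with DESeq2 or the block, and the exocyst 5 over DOWN with the block. Muscle markers had 2 calls (not 1) over DOWN with DESeq2 or no filter. With 1 library left out, muscle calls ranged from 0 to 1 over UPSMALL and from 1 to 2 over DOWN, succinate dehydrogenase calls over DOWN from 1 to 3, and the Lrrc14b ratio of UPBIG to UPSMALL from 549 to 1479. The pair ratio ranged from 3.59 to 4.21 over UPSMALL and from 3.14 to 4.08 over DOWN.

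Of 12 correlations between the deviations of same-numbered libraries (-0.0285 to 0.154, median 0.091), 6 were over 0.1, against 2 of 36 between different numbers (median -0.0261), and 18 of 24 libraries, counted once per other group, correlated best with their own number. That is a hint of pairing in the data, but no label gives a pairing and not every pair passed 0.1, so the numbers were not taken to pair the samples, and the block ended no call of a named gene. With Lrrc14b at 0 to 2.68 counts outside UPBIG, every ratio to those groups is limited by depth and by how reads shared with Ccdc127 were divided.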
